A study of Mus musculus with 6 samples.

Results

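The genes described here are those of the unfolded protein response and of the heat shock response, the programmes by which cells raise their capacity to fold proteins. They were chosen by name, as a list of 35 genes, and all 35 are among the 24421 genes of the expression table. Of these, 21 act in the endoplasmic reticulum, 11 in the cytosol and 3 in mitochondria. RNA was measured in Pml-/- E14 mouse embryonic stem cells (n = 2 libraries, called Pml KO below) and in wild-type E14 cells (n = 2 libraries, called WT). E14 is a widely used line derived from the inner cell mass of the mouse embryo, and the Pml protein builds PML nuclear bodies, small structures that hold many nuclear regulators. Every library came from cells given 10 µM paraquat, a redox cycler that produces superoxide, for 15 h, in medium with serum, leukemia inhibitory factor and 2 kinase inhibitors, CHIR99021 against GSK3 and PD0325901 against MEK. Untreated cells are not part of this comparison, so it sets Pml KO against WT cells under paraquat and does not show how either responds to it. The sources used here do not say whether the Pml KO cells are a single clone, or whether replicate libraries are from separate cultures. The p-values therefore cover the spread between these libraries, which could be technical.

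Proteins that enter the endoplasmic reticulum are folded by the Hsp70-type chaperone BiP with its partners, by lectin chaperones that bind sugar chains, and by disulfide isomerases. When misfolded proteins accumulate there, the membrane sensors ATF6, IRE1 and PERK are activated, and ATF6 and the transcription factor XBP1 switch on chaperone and degradation genes. In the cytosol and nucleus the equivalent role belongs to the transcription factor HSF1, which induces the heat shock proteins, and mitochondria fold imported proteins with a chaperonin and an Hsp70 of their own.

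Depth ranged from 31384794 to 44130093 reads per library, so that 1 CPM (1 read per 1000000 reads counted in genes) was 31.4 to 44.1 reads. The Pml transcript, the check on the labels, was at 78.7 and 89.7 CPM in Pml KO, against 238 and 228 CPM in WT. The 8 pluripotency markers summed to 6891 and 6903 CPM in Pml KO and 6723 and 6837 CPM in WT. Of these markers Zfp42 was called lower (log2 fold change -0.27, limma adjusted p = 0.00251) and Tfcp2l1 higher (0.29, limma adjusted p = 0.0241). The adjusted p of Tfcp2l1 was 0.0405 with edgeR and 0.504 with DESeq2, and its WT libraries were at 726 and 903 CPM. Fibroblast markers summed to 5.77 to 6.47 CPM in Pml KO and 6.84 to 7.58 CPM in WT, and mesendoderm markers to 8.52 to 8.88 CPM in Pml KO and 9.11 to 9.70 CPM in WT. Of the fibroblast markers, Col3a1 and Postn were each at 0 in 3 of the 4 libraries. Neuroectoderm markers summed to 240.3 and 242 CPM in Pml KO and 262 and 273 CPM in WT, with Sox1 and Nes called lower. Most of that sum was Tubb3, at 193 and 195 CPM in Pml KO and 200 and 207 CPM in WT, not called. Pax6, with a log2 fold change of 0.05, was not called either, and Neurog2 averaged under 1 CPM and was not tested. Of the trophoblast markers, Tfap2c was higher in Pml KO (limma adjusted p = 0.000845) while Cdx2, Elf5 and Hand1 lay below 1 CPM in every library. In bulk RNA, fewer cells of a type and less RNA per cell cannot be told apart, and the part of these marker differences in the results below was not tested. The library kit entry of WT library 2 names a DNA kit, where the other 3 name an RNA kit. That of Pml KO library 2 names both. Among the members and the called genes named from related pathways, calls that end without WT library 2 are given both ways. For other called genes, the markers among them, values without it are not given.

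Levels are in CPM, which is not corrected for transcript length, so levels are compared between libraries and not between genes. Each log2 fold change is Pml KO minus WT of log2(CPM + 1), a scale on which low genes change less than in CPM, and adjusted p-values come from limma over 12710 genes with Benjamini-Hochberg adjustment. All 35 members had a mean of at least 1 CPM and were tested. Differences were small. Of the 35 members, 4 fell in Pml KO (Hspb1, Pdia4, Edem1 and Hspe1) and 1 rose (Hsp90aa1) at an adjusted p of 0.05. That is 14.3% of the members, while 5.41% of all tested genes were called, 3.45% lower and 1.95% higher. The members had a median of 229 CPM, against 30.2 CPM for all tested genes, and the part of this greater read depth in the share called was not tested. The count of 5 was 2 without WT library 1, 3 without WT library 2 and 3 without Pml KO library 2. With edgeR's quasi-likelihood test on the reads recovered from the CPM steps it was 3 (Pdia4, Hspb1 and Hsp90aa1), where 4.19% of all genes were called. In 31 of the 35 members the 95% interval of the difference lay within 0.32 log2 units, a fold of 1.25, in either direction. The exceptions were Edem1, Hspb1, Sdf2l1 and Hspa1a.

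**Figure D1:**
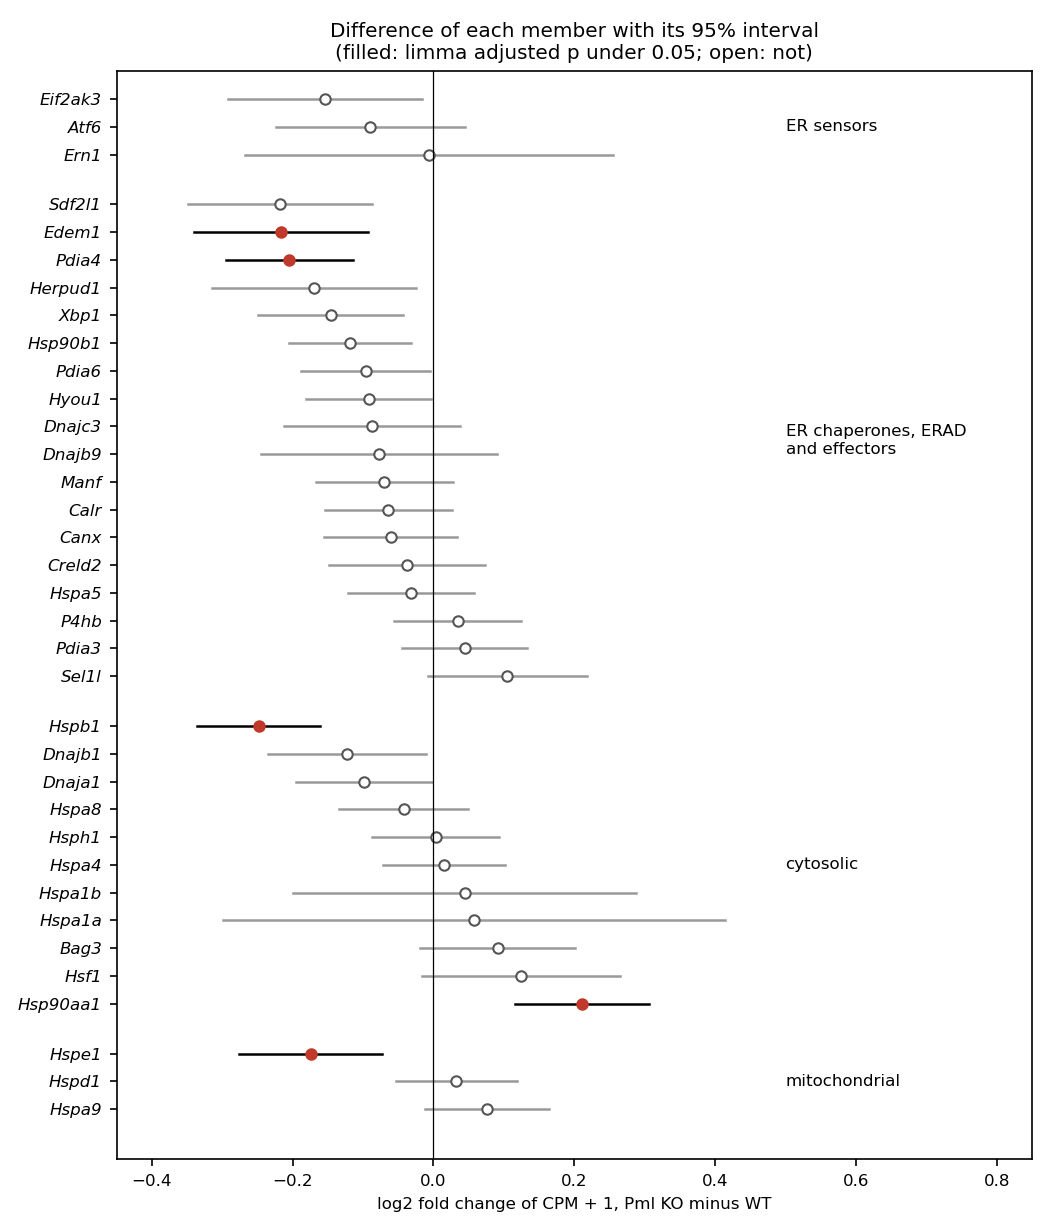
Log2 fold change (Pml KO minus WT, of CPM + 1) of each of the 35 members, with its 95% interval, by compartment; filled points passed an adjusted p of 0.05 in limma over all genes. Of the 21 endoplasmic reticulum genes 18 lie left of 0, while 5 of the 14 cytosolic and mitochondrial genes do, and the 5 filled points are Edem1, Pdia4, Hspb1, Hsp90aa1 and Hspe1.

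The endoplasmic reticulum genes lay mostly slightly lower in Pml KO, and few were called. Of 21, 18 had a log2 fold change below 0 (17 with edgeR or DESeq2, where Ern1 changed sign), 2 fell past the threshold and 0 rose. By comparison, 51.0% of all tested genes were below 0. The median was -0.09, against -0.0029 for all tested genes. In 13 of the 21, both Pml KO libraries were below both WT libraries, and in 2 both were above, while across all tested genes 49.3% were separated, 25.5% downward and 23.8% upward. Together the 21 genes took 0.821 and 0.825% of all reads in the Pml KO libraries, against 0.855 and 0.863% in the WT libraries, so the summed share was lower in both knockout libraries. At an unadjusted p of 0.05, 9 of the 21 passed, against 19.3% of all tested genes.

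The sensors head the pathway, and none of the 3 was called. Eif2ak3 encodes PERK, the kinase that phosphorylates the translation factor eIF2 alpha. It was at 48.3 and 48.8 CPM in Pml KO and 56.4 and 51.9 CPM in WT. Its groups did not overlap, with a log2 fold change of -0.15 (SE 0.065, limma adjusted p = 0.204). Atf6, which encodes the sensor that is cleaved in the Golgi to release a transcription factor, was at 58.2 and 56.9 CPM in Pml KO and 58.6 and 64.1 CPM in WT. The gap between the groups was small beside the spread of the WT libraries (log2 fold change -0.09, SE 0.063, limma adjusted p = 0.481). Ern1, which encodes the kinase and endoribonuclease IRE1 alpha, was at 9.38 and 8.03 CPM in Pml KO and 9.30 and 8.18 CPM in WT. These values overlapped almost fully, and the 95% interval of its log2 fold change ran from -0.27 to 0.25.

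Xbp1 encodes the transcription factor whose messenger RNA IRE1 splices, and its level counts spliced and unspliced forms together. It was at 116 and 118 CPM in Pml KO and 130 and 129 CPM in WT. Both knockout libraries were lower by more than the libraries of either group differed, yet it was not called in the test over all genes (log2 fold change -0.15, SE 0.048, limma adjusted p = 0.0993).

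Degradation of misfolded proteins was represented by Edem1, Sel1l and Herpud1. Edem1 (chromosome 6, 108824045 to 108859356), a mannosidase family protein that directs misfolded glycoproteins to degradation, fell to 64.1 and 60.5 CPM in Pml KO, against 73.2 and 71.9 CPM in WT. The decrease was 14.1% (log2 fold change -0.22, SE 0.058, limma adjusted p = 0.0420). Its call ended without WT library 1 (adjusted p = 0.195), WT library 2 (0.0758) or Pml KO library 2 (0.206), with edgeR (0.0524), DESeq2 (0.0926) and no filter on low values (0.0810), and held in 4 of the 10 alternative settings. Herpud1, a membrane protein that organises the retrotranslocation complex, was at 43.6 and 40.0 CPM in Pml KO and 47.0 and 47.2 CPM in WT. Its groups did not overlap, and it was not called (log2 fold change -0.17, SE 0.068, limma adjusted p = 0.180). Sel1l, the adaptor of the ubiquitin ligase HRD1 in the same process, differed in sign: it was at 116 and 125 CPM in Pml KO and 110 and 113 CPM in WT. Both knockout libraries were above both WT libraries (log2 fold change 0.11, SE 0.053, limma adjusted p = 0.300).

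Disulfide isomerases, which form and rearrange disulfide bonds in folding proteins, gave values on both sides of 0. Pdia4 (chromosome 6, 47796141 to 47813512 in GRCm38.p6) fell to 349 and 361 CPM in Pml KO, against 409 and 410.2 CPM in WT, and the WT libraries were nearly equal. The decrease was 13.3% (log2 fold change -0.20, SE 0.042, limma adjusted p = 0.00983), and it passed in 9 of 10 alternative settings, among them edgeR (adjusted p = 0.0219), the exception being no filter (0.0509). Pdia6 was at 505 and 480.1 CPM in Pml KO and 525 and 528 CPM in WT (log2 fold change -0.10, SE 0.043, limma adjusted p = 0.235). Pdia3, the isomerase that works with the lectin chaperones, was at 733 and 732 CPM in Pml KO and 697 and 724 CPM in WT. P4hb, the classical protein disulfide isomerase, was at 589 and 574 CPM in Pml KO and 557 and 578 CPM in WT. These last 2 had log2 fold changes above 0, at 0.04 and 0.03, and neither was called. The direction of each of the 4 was kept in all 10 alternative settings run.

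Hspa5, which encodes BiP and is the standard marker of an active unfolded protein response, was at 1289 and 1236 CPM in Pml KO and 1296 and 1284 CPM in WT. The groups overlapped, and the 95% interval of its log2 fold change ran from -0.12 to 0.06 (limma adjusted p = 0.743). Its partners covered a range. Sdf2l1, a component of BiP complexes, was at 49.5 and 48.3 CPM in Pml KO and 56.2 and 57.9 CPM in WT. The groups were well apart, and the adjusted p lay just above the threshold, so the gene was not called (log2 fold change -0.22, SE 0.061, limma adjusted p = 0.0509; edgeR adjusted p = 0.0622). Hyou1, the nucleotide exchange factor of BiP, was at 400 and 398 CPM in Pml KO and 429 and 421 CPM in WT, without overlap (log2 fold change -0.09, limma adjusted p = 0.241). The J-domain cochaperones Dnajb9 and Dnajc3 had log2 fold changes of -0.08 and -0.09 with adjusted p-values of 0.655 and 0.456.

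Hsp90b1, the Hsp90 of the endoplasmic reticulum, was at 1116 and 1113 CPM in Pml KO and 1205 and 1213 CPM in WT. The libraries of each group were close and the groups apart, by a log2 fold change of -0.12 (SE 0.041, limma adjusted p = 0.114). The lectin chaperones Canx and Calr were both lower by a log2 fold change of 0.06 in size, not called, and the Canx libraries overlapped between groups. Manf and Creld2, secreted or luminal proteins induced by endoplasmic reticulum stress, had log2 fold changes of -0.07 and -0.04 (limma adjusted p = 0.448 and 0.758). The authors' deposited table gives their own edgeR test over 24421 genes. Its false discovery rate was 0.0193 for Pdia4, 0.0296 for Edem1 and 0.0417 for Sdf2l1. For the called members outside the endoplasmic reticulum, that rate was 0.000739 for Hspb1, 0.0111 for Hsp90aa1 and 0.0983 for Hspe1. Under 0.05 were 3.8% of all 24421 genes, but 5660 of these had no read. Of the 12710 genes tested with limma, which include all members, 824 were under 0.05 in the authors' test. Of all members, 5 were under 0.05.

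**Figure D2:**
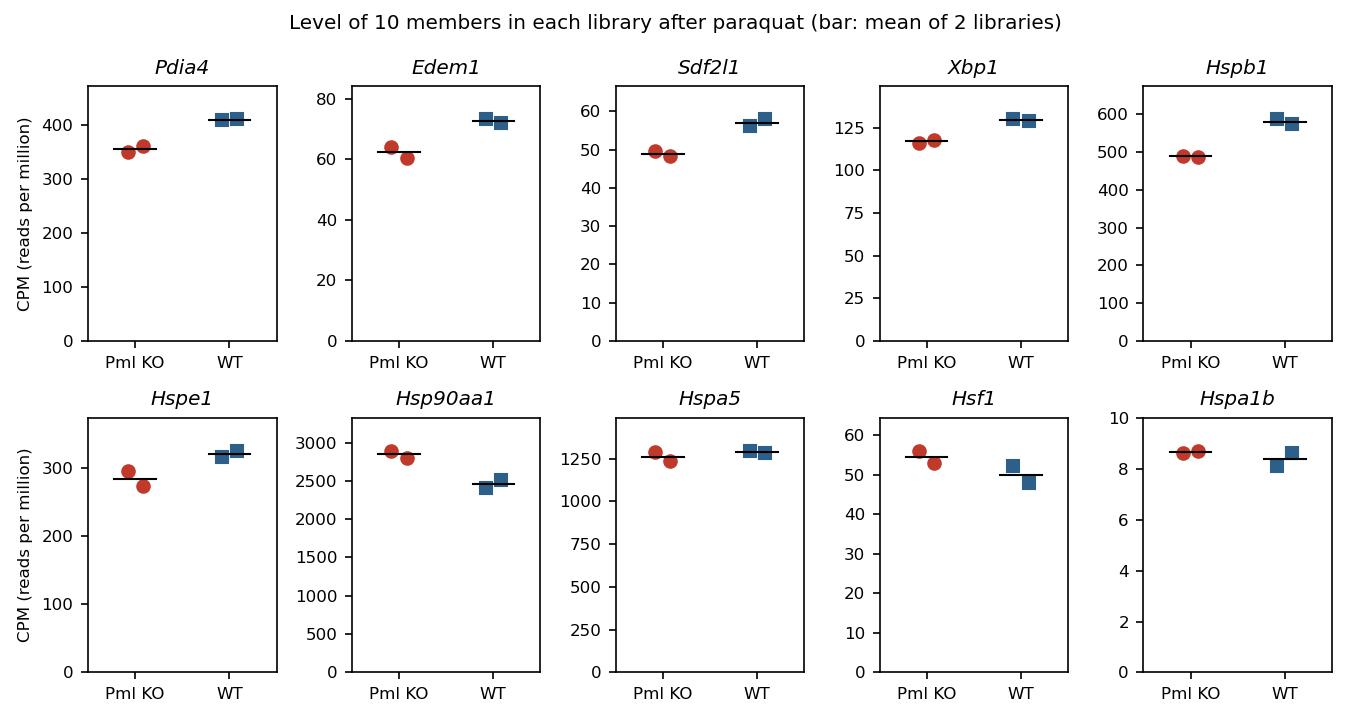
CPM of 10 members in the 2 Pml KO libraries (circles, left) and the 2 WT libraries (squares, right), each axis starting at 0, with a bar at each mean. Pdia4, Edem1, Sdf2l1, Xbp1, Hspb1 and Hspe1 are lower in both knockout libraries, Hsp90aa1 is higher in both, and the groups of Hspa5 overlap.

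The endoplasmic reticulum stress element is the promoter sequence through which ATF6 and XBP1, with the factor NF-Y, act on chaperone genes. It was looked for as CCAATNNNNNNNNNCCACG on both strands in RefSeq promoter windows (GRCm38.p6, 250 bases before to 50 after a gene's start). Windows were found for 28 of the 35 members. Of the endoplasmic reticulum group, Atf6, Hyou1 and Manf had none and were not searched. The exact element occurred in 7 of the members, all of the endoplasmic reticulum group, and in 0.119% of all 32851 windows. They are shown because 7 of the 21 endoplasmic reticulum members hold the element, with the fixed letters of the element in capitals, 15 bases on each side, and each sequence written 5′ to 3′ on the strand of its gene:

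Hspa5 (chr2:34772010-34772058, plus strand): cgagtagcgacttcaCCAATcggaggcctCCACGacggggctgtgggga

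Hsp90b1 (chr10:86705518-86705566, minus strand): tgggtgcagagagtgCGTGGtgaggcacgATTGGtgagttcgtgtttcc

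Hsp90b1 (chr10:86705623-86705671, minus strand): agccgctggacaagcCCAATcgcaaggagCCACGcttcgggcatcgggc

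Pdia6 (chr12:17266476-17266524, plus strand): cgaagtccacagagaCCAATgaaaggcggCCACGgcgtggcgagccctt

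Dnajc3 (chr14:118937812-118937860, plus strand): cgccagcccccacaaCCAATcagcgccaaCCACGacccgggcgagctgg

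Creld2 (chr15:88819505-88819553, plus strand): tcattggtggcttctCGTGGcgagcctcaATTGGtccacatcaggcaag

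Calr (chr8:84847060-84847108, minus strand): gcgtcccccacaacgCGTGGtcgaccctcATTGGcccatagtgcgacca

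Canx (chr11:50325785-50325833, minus strand): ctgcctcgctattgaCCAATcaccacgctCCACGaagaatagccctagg

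Where the capitals read CGTGG and then ATTGG, the element runs on the opposite strand. The Hspa5 element begins 65 bases before the start, and the others lie 80 to 212 bases before it. Herpud1 holds the related second form of the element, searched as ATTGGNCCACG on both strands and present in 0.0365% of windows:

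Herpud1 (chr8:94386362-94386402, plus strand): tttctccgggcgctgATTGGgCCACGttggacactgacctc

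All 7 members with the exact element had log2 fold changes below 0, from -0.12 for Hsp90b1 to -0.03 for Hspa5, and 0 of them was called. Of all 21 endoplasmic reticulum members, 18 were below 0. The median of the 7 was -0.06, against -0.09 for the 21, which include the 7 and the unsearched Atf6, Hyou1 and Manf. Whether the element goes with the size of the differences was not tested. At an unadjusted p of 0.05, Hsp90b1 (0.0108) and Pdia6 (0.0408) passed. The windows of Pdia4, Edem1, Xbp1 and Sdf2l1 held no exact match. Of 14 other tested genes with the element in a window, 11 had a log2 fold change below 0, with a median of -0.17 and 4 called lower (Xlr3a, Xlr3b, Xlr3c and Pan2). The Xlr3 genes are copies of a single X-linked family whose reads are hard to assign, so these are not independent. Among the rest were Derl3, a channel component of degradation from the endoplasmic reticulum, at 11.3 and 12.1 CPM in Pml KO and 13.6 and 13.1 CPM in WT (limma adjusted p = 0.371), and Syvn1, which encodes HRD1, at 72.5 and 70.5 CPM in Pml KO and 84.4 and 73.3 CPM in WT (limma adjusted p = 0.278). Neither was called. The core of a further element, bound by XBP1 and searched as TGACGTGG, occurred in 0.676% of windows and in 0 of those of the members. Of 107 tested genes with it, 61 had a log2 fold change below 0, with a median of -0.02, and 4 were called higher and 4 lower. Of 8 tested genes with the second form of the element, 3 were below 0, Herpud1 among them. Their median was 0.10, with 1 called higher and 0 lower. Across all tested genes, 51.0% were below 0, 1.95% were called higher and 3.45% lower.

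**Figure D3:**
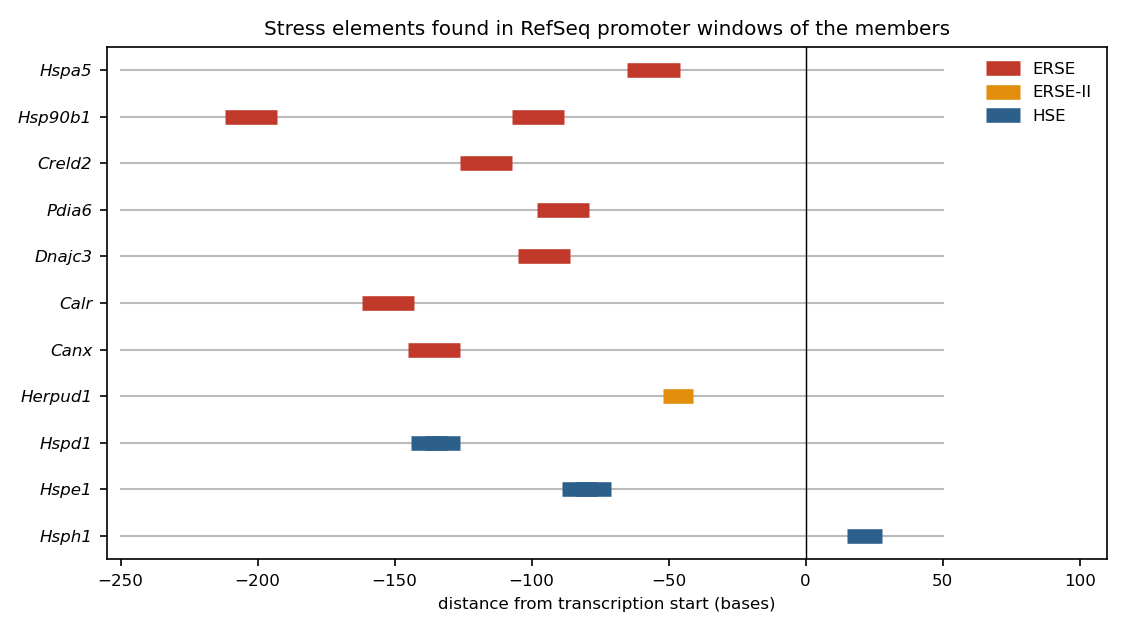
Position of the stress elements found in promoter windows of members, in bases from the transcription start (vertical line at 0); ERSE is the endoplasmic reticulum stress element, ERSE-II its second form and HSE the heat shock element. The elements of the 8 endoplasmic reticulum genes all lie before the start, and that of Hsph1 lies after it; for Hspd1 and Hsph1 the starts are inner starts, within the listed span of the gene.

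The cytosolic chaperones gave the largest decrease and the only called increase among the members, and the other cytosolic members differed by at most 9.13% in CPM. Hspb1 (chromosome 5, 135887919 to 135889563), a small heat shock protein that holds unfolded proteins and binds the cytoskeleton, fell to 490.1 and 488 CPM in Pml KO, against 587 and 575 CPM in WT. The decrease was 15.9% (log2 fold change -0.25, SE 0.041, limma adjusted p = 0.00232), and it passed in all 10 alternative settings, with adjusted p-values from 1.82e-05 to 0.0266. Hsp90aa1 (chromosome 12, 110691036 to 110696395), the inducible cytosolic Hsp90, rose to 2893 and 2796 CPM in Pml KO, against 2407 and 2509 CPM in WT. The increase was 15.7% (log2 fold change 0.21, SE 0.044, limma adjusted p = 0.0108; edgeR adjusted p = 0.00645). Its call ended without WT library 1 (adjusted p = 0.145) and with no filter (0.138), and held in the other 8 of 10 settings.

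The other Hsp90 genes did not show this increase. Hsp90ab1, the constitutive cytosolic form and no member of the list, was at 6958 and 6911 CPM in Pml KO and 7071 and 6956 CPM in WT (log2 fold change -0.02, limma adjusted p = 0.890). The ratio of Hsp90aa1 to Hsp90ab1 CPM was 0.416 and 0.405 in Pml KO, against 0.340 and 0.361 in WT. The ratio of Hsp90aa1 to Hsp90b1 was 2.59 and 2.51 in Pml KO, against 2.00 and 2.07 in WT. Both ratios were higher in both knockout libraries. They are not corrected for length and compare libraries only.

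The genes most strongly induced by heat shock had few reads and gave no detectable difference. Hspa1b, an inducible Hsp70 gene, was at 8.62 and 8.71 CPM in Pml KO and 8.12 and 8.63 CPM in WT, with overlapping groups. Hspa1a, its near-identical neighbour on chromosome 17, was at 2.38 and 1.81 CPM in Pml KO and 2.07 and 1.86 CPM in WT, from 65 to 91 reads per library. The interval of its log2 fold change was wide, from -0.30 to 0.41. How reads that match both copies were counted is not stated in those sources, and the level of each copy is uncertain.

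Hsf1, which encodes the master regulator of the response, was at 56.0 and 53.0 CPM in Pml KO and 52.1 and 47.8 CPM in WT. Both knockout libraries were above both WT libraries, and the gene was not called (log2 fold change 0.12, SE 0.066, limma adjusted p = 0.328). Bag3, a cochaperone that directs clients to autophagy and is a target of HSF1, was at 97.4 and 96.3 CPM in Pml KO and 91.6 and 90.1 CPM in WT (log2 fold change 0.09, SE 0.052, limma adjusted p = 0.366). Values of the Hsp40 cochaperones lay in the other direction. Dnajb1, the stress-inducible form, was at 92.5 and 91.3 CPM in Pml KO and 103 and 97.7 CPM in WT. Its groups did not overlap (log2 fold change -0.12, SE 0.053, limma adjusted p = 0.213). Dnaja1 was at 218 and 225 CPM in Pml KO and 233 and 241 CPM in WT (log2 fold change -0.10, SE 0.045, limma adjusted p = 0.25).

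Constitutive chaperones differed little between the groups. Hspa8, the constitutive Hsp70, had a log2 fold change of -0.04, and the Hsp110-type exchange factors Hspa4 and Hsph1 had 0.02 and 0.0034. Their 95% intervals together spanned -0.13 to 0.10. Over the 11 cytosolic members, 7 had a log2 fold change above 0 and 4 below.

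The mitochondrial chaperones included the chaperonin pair Hspd1 and Hspe1, which encode the barrel and the lid of the same machine and lie head to head on chromosome 1. Hspe1 (chromosome 1, 55088148 to 55091317) fell to 295 and 273 CPM in Pml KO, against 316 and 325 CPM in WT. The decrease was 11.4% (log2 fold change -0.17, SE 0.048, limma adjusted p = 0.0457). It passed in 3 of the 10 alternative settings, the fewest among the 5 called members. The call ended without WT library 1 (adjusted p = 0.0765), WT library 2 (0.161) or Pml KO library 2 (0.210), under TMM scaling (0.0614), with edgeR (0.0738), DESeq2 (0.0630) and no filter (0.124). Hspd1 was at 986 and 991 CPM in Pml KO and 962 and 970 CPM in WT, with a log2 fold change of 0.03 (SE 0.040, limma adjusted p = 0.722). The ratio of Hspe1 to Hspd1 CPM was 0.300 and 0.276 in Pml KO, against 0.329 and 0.335 in WT, without overlap. An exact two-sided permutation test of the log2 ratio gave p = 0.333, the smallest that 2 against 2 libraries allow, and the ratio was chosen after its values were seen. Annotated pseudogene copies bear the names of Hspe1 (6) and Hspd1 (5), and the counting of reads that match them is likewise not stated.

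The RefSeq windows of Hspe1 and Hspd1 hold the same heat shock element, shown because Hspe1 fell and Hspd1 was not called. It was searched as GAANNTTCNNGAA on both strands, and 0.603% of all windows hold a match; the fixed letters of its overlapping matches are in capitals:

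Hspd1 (chr1:55088054-55088081, minus strand): gggccTTCcgGAAggTTCtaGAAcggac

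Hspe1 (chr1:55088054-55088081, plus strand): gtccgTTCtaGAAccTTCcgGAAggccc

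These are the same bases read on the strand of each gene. The element begins 89 bases before the Hspe1 start. The listed spans of the genes overlap by 96 bases. The element lies inside the listed Hspd1 span, 167 bases after the 5′ end of that span and 144 bases before the inner start whose window was searched. Of the other members with a window, Hsph1 alone held a match. Hsp90aa1, Hspa8, Hsf1 and Hspa9 had no window and were not searched. Of 55 tested genes with a match, members included, 29 had a log2 fold change below 0, with a median of -0.0033, and 0 were called higher and 5 lower.

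Hspa9, the mitochondrial Hsp70, was at 1678 and 1663 CPM in Pml KO and 1596 and 1574 CPM in WT. Both knockout libraries were higher, and it was not called (log2 fold change 0.08, SE 0.041, limma adjusted p = 0.343). For the 14 cytosolic and mitochondrial members together, 9 had a log2 fold change above 0, 2 fell and 1 rose past the threshold, and the median was 0.02. Without single libraries that median was between 0.0029 and 0.02. They took 1.005 and 0.998% of reads in Pml KO and 0.963 and 0.977% in WT. In mean CPM, Hsp90aa1 alone rose by more than this sum, with 2893 and 2796 CPM in Pml KO and 2407 and 2509 CPM in WT. The higher summed share thus rested on that gene. The endoplasmic reticulum members had their median at -0.09 and 85.7% of their genes below 0, and the cytosolic and mitochondrial members had 35.7% below 0. Without single libraries, 17 to 18 of the 21 and 5 to 7 of the 14 were below 0. The difference between the groups of genes was not tested.

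**Figure D4:**
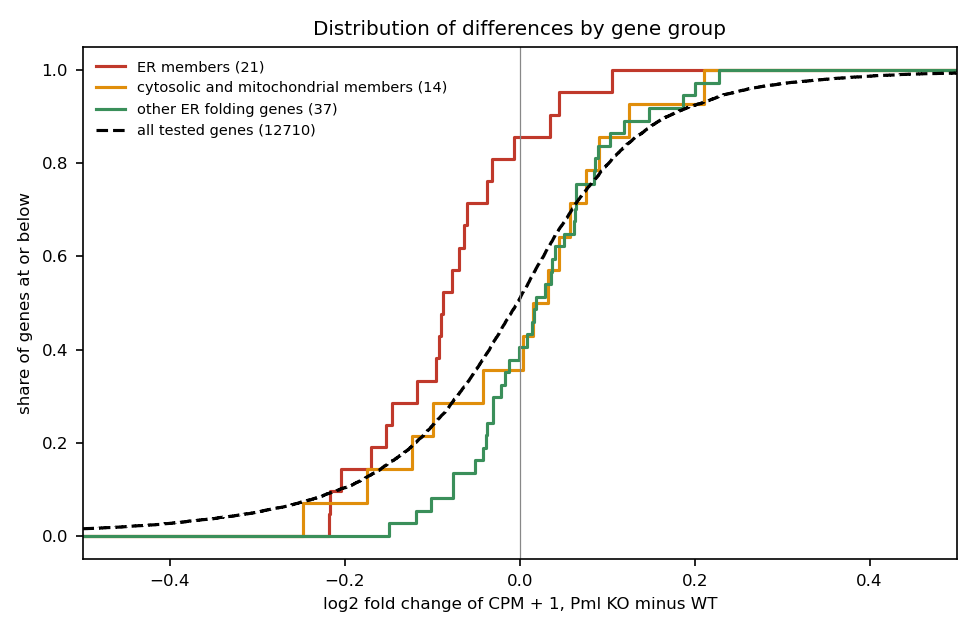
Cumulative share of genes at or below each log2 fold change (Pml KO minus WT, of CPM + 1) for the 21 endoplasmic reticulum members, the 14 cytosolic and mitochondrial members, 37 other endoplasmic reticulum folding genes and all 12710 tested genes. The endoplasmic reticulum members have their median at -0.09, the other folding genes at 0.02 and all tested genes near 0.

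Other genes of these pathways, 132 in 5 lists, gave 3 higher and 3 lower, a share of 4.55% called. Of 37 other folding genes of the endoplasmic reticulum, 15 had a log2 fold change below 0, with a median of 0.02. Of these, Ero1l rose. It encodes the oxidase that recharges the disulfide isomerases, and was at 74.2 and 78.4 CPM in Pml KO and 63.2 and 66.9 CPM in WT (log2 fold change 0.23, SE 0.059, limma adjusted p = 0.0352). That call ended without WT library 1 (adjusted p = 0.242) or Pml KO library 2 (0.193), with DESeq2 (0.0618) and no filter (0.0794), and held in 6 of 10 alternative settings.

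Of 40 other cytosolic chaperone genes, 2 rose and 1 fell. Ptges3, which encodes a cochaperone that stabilises client-bound Hsp90, fell to 277 and 319 CPM in Pml KO, against 354 CPM in both WT libraries (log2 fold change -0.25, SE 0.056, limma adjusted p = 0.0154). Without Pml KO library 1 its log2 fold change was -0.15 and its adjusted p 0.0546, with no filter the adjusted p was 0.0899, and the call held in 8 of 10 alternative settings. Hspb8, a small heat shock protein and partner of BAG3, rose to 91.5 and 96.5 CPM in Pml KO, against 74.9 and 82.5 CPM in WT (log2 fold change 0.25, SE 0.060, limma adjusted p = 0.0212), a call that ended without WT library 1 (adjusted p = 0.212) or Pml KO library 2 (0.130) and with no filter (0.0697), and held in 7 of 10 settings. Fkbp5, an Hsp90-bound immunophilin, rose to 191 and 186 CPM in Pml KO, against 163 and 168 CPM in WT (log2 fold change 0.19, SE 0.047, limma adjusted p = 0.0292). That call ended without WT library 1 (adjusted p = 0.227) or Pml KO library 1 (0.0729) and with no filter (0.0700), and held in 7 of 10 settings. Ptges3 and Fkbp5 are thus Hsp90 partners called in opposite directions.

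Of 20 mitochondrial proteostasis genes, Timm44, an anchor of the Hsp70 import motor, fell to 63.5 and 64.3 CPM in Pml KO, against 78.3 and 76.3 CPM in WT (log2 fold change -0.27, SE 0.056, limma adjusted p = 0.00965). Without WT library 1 its adjusted p was 0.0612. Of 12 genes around PERK signalling and eIF2 alpha, 0 were called by limma and 0 by edgeR, with 3 at an unadjusted limma p of 0.05 and 1 called by DESeq2. Of the 12, 10 had a log2 fold change above 0 (11 under TMM scaling, edgeR or DESeq2), with a median of 0.04. In 5 both Pml KO libraries were above both WT libraries, while in 0 both were below. Across all tested genes, 19.3% passed at that unadjusted limma p, and 51.0% had a log2 fold change below 0. Libraries were separated upward in 23.8% of all tested genes and downward in 25.5%. The counts of the 12 were not tested against these shares. Atf4, the transcription factor of this branch, was at 513 and 561 CPM in Pml KO and 554 and 517 CPM in WT. Ddit3, which encodes CHOP, was at 16.8 and 16.5 CPM in Pml KO and 15.2 and 17.4 CPM in WT. The groups of both overlapped, with log2 fold changes of 0.0033 and 0.04. Atf4 and Ddit3 were chosen after their values were seen.

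Genes of chromosome 8 were lower as a whole in Pml KO: 70.1% of its 653 tested genes had a log2 fold change below 0, with a median of -0.06, the lowest of the 20 chromosomes with at least 20 tested genes. Calr, Herpud1 and Dnajb1 of the members lie on it, as does Timm44. Of the cell type markers, Zfp42 and Sox1, both called lower, lie on it, as does Tubb3, not called. Nes, also called lower, does not. The part of the chromosome in these marker differences was not tested. Without its genes, 16 of 19 endoplasmic reticulum members had a log2 fold change below 0, and their median was -0.09 as before. Pdia4, Edem1 and Eif2ak3 lie on chromosome 6, where 55.1% of 568 tested genes were below 0.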

How the data were processed

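Polyadenylated RNA of 4 libraries was analysed, without the 2 chromatin samples of the series. The submitters' processing notes name cutadapt, TopHat, edgeR and mm10; the sources used here do not give versions, annotation, strand use or the counting of multiply matching reads. The authors deposited CPM per gene and library, with their log2 fold change (wild type over knockout, as its sign shows in each of the 824 genes they called that averaged 1 CPM or more), a mean log2 CPM, p-values and false discovery rates. Dividing the deposited CPM by the value of 1 read gave whole reads for 100% of values above 0, within 0.001 reads.

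Limma-trend (limma 3.58.1, R 4.3.3) was fitted to log2(CPM + 1) for genes averaging 1 CPM or more, on genotype alone, at a threshold of 0.05. Alternatives were a pseudocount of 0.25, no filter, TMM scaling, edgeR 4.0.16 (620 of 14782 genes called) and DESeq2 1.42.0 on the recovered reads, the replicate number as a block, and leaving out each library. The limma and edgeR fits were also run on simulated data, in which each change put in was larger than that of any called member. Recovery of changes as small as those of the members was not tested. Intervals cover the spread between libraries; with n = 2 their number limits precision.

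The 35 members, and the other lists, were chosen with earlier results of these data known. Values in every library are given by a rule set with the lists: for called members, sensors, Hspa5, Xbp1, Hsf1, Hspa1a and Hspa1b, and for the 3 largest other differences in each compartment group; further members were added after their values were seen. From the other lists up to 4 called genes are named; a result that this rule would name is not reported here. Derl3, Syvn1, Hsp90ab1, Atf4 and Ddit3, the genes with a stress element and the chromosome values were chosen after values were seen. All positions are RefSeq GRCm38.p6, the assembly of mm10.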

Additional observations from a re-analysis of the deposited data

How the results depend on the processing

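All tested genes gave 687 calls, 298 with no filter on low values, 1198 with the replicate number as a block and 367 to 869 without single libraries; TMM scaling and edgeR each gave 620 and DESeq2 486. With no filter, 73.5% of calls were lower, against 63.9%. The members gave 5 calls, 1 with no filter, 3 with edgeR, 3 with DESeq2 and 2 to 5 without single libraries. The endoplasmic reticulum members gave 2, 0 with no filter, 1 with edgeR, 1 with DESeq2 and 1 to 2 without single libraries. The cytosolic and mitochondrial members gave 3, 1 with no filter and 1 to 3 without single libraries. The other proteostasis genes gave 6, 2 with no filter and 3 to 7 without single libraries. No filter means 18761 genes tested, and leaving out a library leaves fewer samples; the cause of the other shifts was not tested.

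Log2 fold changes near 0 changed sign for Ern1 (0.00024 with edgeR, 0.0024 with DESeq2, -0.11 to 0.094 without single libraries), Hspa1a (-0.078 to 0.19 without single libraries) and Hsph1 (-0.017 to 0.024 without single libraries). Of 420 values of single genes under alternatives, 383 kept their direction and side of the threshold. Same-numbered libraries of the groups share a number only: their deviations from the group means correlated at 0.12 across 12710 genes. With the replicate block 6 members were called, Sdf2l1 (adjusted p = 0.0205) being added.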
